A study of Mus musculus with 4 samples.

Results

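The 44 genes described here encode the machinery that makes 18S ribosomal RNA: the proteins of the small subunit processome, their U3 small nucleolar ribonucleoprotein (snoRNP), and the factors that finish the 40S particle. They were listed by name and not by a rule on their values, but with earlier results of these data known. All 44 of 44 symbols were found among the 23235 genes of the table. The table held 1 library for each of 4 groups of mouse oocytes on a C57B6 background. Growing deletion oocytes were Dcaf13fl/fl;Gdf9-Cre and came from mice of about 14 days, and growing control oocytes were Dcaf13fl/fl of the same age. Fully grown deletion oocytes (Dcaf13fl/fl;Gdf9-Cre) and fully grown controls (Dcaf13fl/fl) came from mice of about 23 days, taken 48 h after 5 IU of PMSG, a gonadotropin that stimulates follicles. All 4 groups therefore carried the floxed alleles, and only the deletion groups carried the Cre transgene. Gdf9-Cre acts in oocytes. Each library pooled 10 oocytes, and the number of mice behind it is not given in the sources used here.

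Ribosomes begin in the nucleolus, where RNA polymerase I transcribes a long precursor that holds the RNAs of both subunits. The small subunit processome forms on the front of this precursor while it is being made: the UtpA and UtpB subcomplexes load first, the U3 snoRNP pairs with the precursor, and further proteins, helicases and nucleases fold and cut it until the 18S part can leave as a pre-40S particle. In yeast most of these proteins are essential. The growing oocyte stores ribosomes for the embryo, and its nucleolus is active during growth and falls silent near its end. DCAF13 is itself the mammalian counterpart of the yeast processome protein Sof1, and it is not one of the 44 genes.

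Dcaf13 transcript stood at 38.9 FPKM in deletion against 96.1 in control oocytes at the growing stage, a change of -1.28 in log2(FPKM + 1). At the fully grown stage it stood at 64.0 FPKM in deletion against 160.2 in control oocytes, a change of -1.31. FPKM, the fragments mapped to a gene scaled to transcript length and to all mapped fragments, covers the whole gene, so it does not show whether the floxed part remained. In the deposited table the gene symbols and the values run in different sort orders, so the symbols were re-paired with the values, which moved 40 of the 44 genes by 1 or 2 rows. The median level of the oocyte markers was 1950.0 FPKM after re-pairing and 8.62 as deposited. The row of Dcaf13 was the same either way. Every value below is that of 1 library, no error between samples can be given, and no test was run. Differences are changes in log2(FPKM + 1), deletion minus control or fully grown minus growing. As a description of size, a gene was called higher or lower under a 2-fold rule where it had at least 5 FPKM in 1 library of the pair and differed by at least 1 on this scale, and under a 1.5-fold rule where it differed by at least 0.58. Summed FPKM was between 649397 and 678437 per library, and relative depth, read from the value of 1 read in low genes, was between 1 and 1.10 times that of the growing control. The 18 oocyte markers, all found, had summed levels of 38049 FPKM in growing deletion, 36931 in growing control, 34454 in fully grown deletion and 34742 in fully grown control oocytes. The 12 granulosa and cumulus markers summed to 18.4 FPKM in growing deletion, 35.3 in growing control, 30.1 in fully grown deletion and 28.2 in fully grown control oocytes, led by Cyp19a1, Nr5a2 and Inha at means of 15.3, 4.56 and 4.02 FPKM, and 6 of the 12 stayed under 1 FPKM throughout, with Amh listed at 0 in both fully grown libraries. Theca and stroma markers (7 genes) summed to at most 1.23 FPKM, led by Dcn, Star and Col1a1 at means of 0.665, 0.176 and 0.0467 FPKM, and blood and immune markers (5 genes) to at most 3.56, nearly all of it from Cd68, with Hbb-b1 and Hba-a1 listed at 0. The granulosa sum was lowest in the growing deletion library, and its part in the results below was not tested.

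As a whole the 44 genes were modestly expressed. Together they made up 0.409% of summed FPKM in growing deletion oocytes against 0.369% in growing controls, and 0.405% in fully grown deletion oocytes against 0.385% in fully grown controls. Their median level was 26.2 FPKM in growing deletion, 21.5 in growing control, 23.7 in fully grown deletion and 20.6 in fully grown control oocytes. By mean over the 4 libraries, 7 genes were at 100 FPKM or more, 17 between 20 and 100, 16 between 5 and 20, and 4 under 5. FPKM is a share of each library, and each library pooled 10 oocytes, so a difference in total RNA per oocyte cannot be seen.

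**Figure D1:**
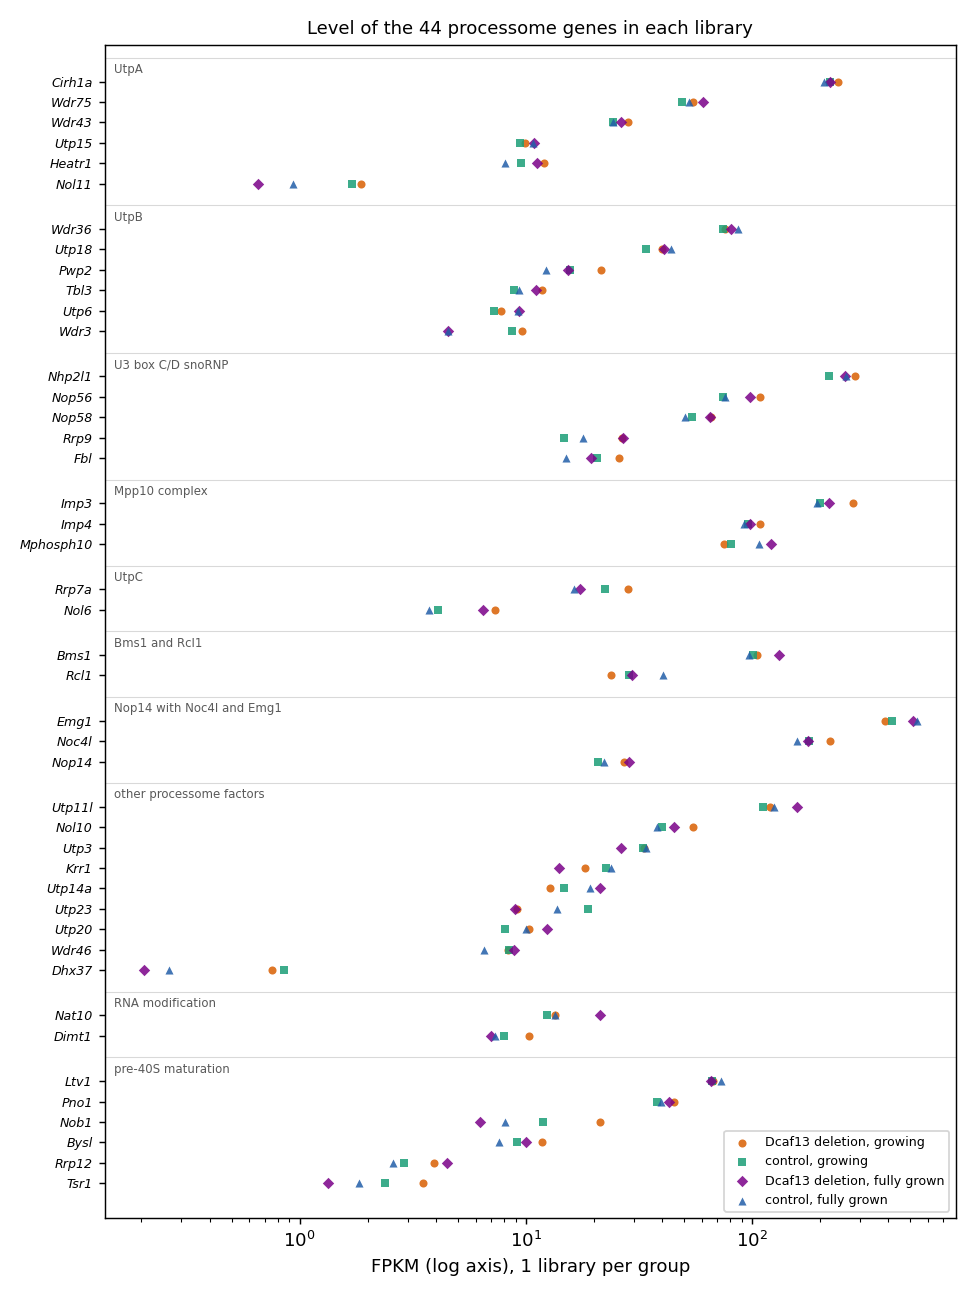
FPKM of each of the 44 genes (log axis) in the 4 libraries, grouped by subcomplex; each point is 1 library. Mean levels span from 461 FPKM (Emg1) to 0.520 (Dhx37), and for most genes the 4 points lie close together.

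The most abundant transcript was Emg1, for a methyltransferase that modifies a pseudouridine of 18S RNA. It stood at 385 FPKM in growing deletion oocytes against 414 in growing controls, and 512 in fully grown deletion oocytes against 534 in fully grown controls. Nhp2l1 (now Snu13), whose product binds the kink-turn of U3, ranked next at 284 FPKM in growing deletion oocytes against 218 in growing controls, and 256 in fully grown deletion oocytes against 260.4 in fully grown controls. Imp3, a small protein that helps U3 pair with the precursor in yeast, followed at 278 FPKM in growing deletion oocytes against 199 in growing controls, and 218 in fully grown deletion oocytes against 193 in fully grown controls. These genes held ranks 287, 492 and 559 by mean FPKM among all genes of the table. Emg1 was above Nhp2l1 in every library, while the ranges of Nhp2l1 and Imp3 over the libraries overlapped. Cirh1a had a mean of 222 FPKM, as did Imp3, and the ranges of these 2 overlapped too. The libraries differ in genotype and stage, so these ranges are no measure of error.

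At the other end, Dhx37, the helicase that strips U3 from the precursor in yeast (as Dhr1), was nearly absent, at 0.755 FPKM in growing deletion oocytes against 0.857 in growing controls, and 0.205 in fully grown deletion oocytes against 0.264 in fully grown controls. Its activator Utp14a was measured at 12.8 FPKM in growing deletion oocytes against 14.8 in growing controls, and 21.2 in fully grown deletion oocytes against 19.2 in fully grown controls. Nol11, a vertebrate member of UtpA, stood at 1.86 FPKM in growing deletion oocytes against 1.70 in growing controls, and 0.653 in fully grown deletion oocytes against 0.934 in fully grown controls. Tsr1, a GTPase-like protein that sits on the pre-40S particle, stood at 3.49 FPKM in growing deletion oocytes against 2.38 in growing controls, and 1.34 in fully grown deletion oocytes against 1.83 in fully grown controls. All 3 of these low genes were below their growing level at the fully grown stage in both genotypes. The number of reads behind values this low is not known here.

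Levels within a subcomplex were not matched. In UtpA the mean ran from 1.29 FPKM (Nol11) to 222 (Cirh1a, now Utp4), in UtpB from 6.83 (Wdr3) to 79.4 (Wdr36), and in the U3 snoRNP from 20.2 (Fbl) to 255 (Nhp2l1). Among groups of at least 3 genes the Mpp10 complex was the most even, from 96.0 (Mphosph10) to 222 (Imp3). Transcript length over the 44 genes ran from 924 to 9507 bases by the longest GENCODE M21 transcript, with a median of 3420, against 3027 for the genes at the minimum in growing oocytes. Their median GC content was 47.0%, against 49.2%.

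Promoter windows, the 250 bases before the transcription start, were available from RefSeq (GRCm38.p6) for 36 of the 44 genes. Their relation to the deletion changes was not tested. Of 5 motifs searched on both strands, the ETS core CCGGAAG was held by 13 of the 36 windows (36.1%), against 6.91% of all 32851 windows and 15.3% of the 8247 windows of genes at the minimum in growing oocytes. The E-box CACGTG was in 5 of 36 (13.9%), against 6.02% of all windows and 8.69% of the expressed ones. The NRF1 palindrome and the YY1 motif AAGATGGCG were each in 1 window (2.78%), against 0.782% and 0.606% of all and 1.79% and 1.36% of the expressed windows. The palindrome bound by BANP was in none, against 0.390% of all and 1.07% of the expressed windows. Of the 36 windows, 20 held none of these letters, and no motif overlapped another in the windows printed here. A match describes the letters and not a bound site. The following windows run 5′ to 3′ on the gene's strand, in lower case with motif matches in capitals, for Nob1 (chr8:107425039-107425288, minus strand), the gene past the 2-fold rule, Rrp9 (chr9:106477059-106477308, plus strand), with the largest growing-stage difference upward, Heatr1 (chr13:12395125-12395374, plus strand), a UtpA scaffold above control at both stages, and Emg1 (chr6:124712179-124712428, minus strand), the most abundant gene.
Nob1: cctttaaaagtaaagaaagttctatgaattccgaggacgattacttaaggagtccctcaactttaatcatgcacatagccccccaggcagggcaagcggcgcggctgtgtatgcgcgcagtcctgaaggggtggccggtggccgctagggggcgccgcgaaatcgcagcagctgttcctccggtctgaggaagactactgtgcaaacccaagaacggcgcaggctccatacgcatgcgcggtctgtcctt
Rrp9: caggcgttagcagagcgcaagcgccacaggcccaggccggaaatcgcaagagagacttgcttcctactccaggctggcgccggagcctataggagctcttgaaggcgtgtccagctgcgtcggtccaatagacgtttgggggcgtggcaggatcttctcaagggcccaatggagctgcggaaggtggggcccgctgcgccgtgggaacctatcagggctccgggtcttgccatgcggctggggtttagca
Heatr1: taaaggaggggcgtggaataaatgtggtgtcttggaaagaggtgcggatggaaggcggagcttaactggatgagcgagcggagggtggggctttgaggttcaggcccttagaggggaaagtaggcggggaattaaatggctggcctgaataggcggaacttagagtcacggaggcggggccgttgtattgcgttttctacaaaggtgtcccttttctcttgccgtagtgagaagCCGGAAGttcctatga
Emg1: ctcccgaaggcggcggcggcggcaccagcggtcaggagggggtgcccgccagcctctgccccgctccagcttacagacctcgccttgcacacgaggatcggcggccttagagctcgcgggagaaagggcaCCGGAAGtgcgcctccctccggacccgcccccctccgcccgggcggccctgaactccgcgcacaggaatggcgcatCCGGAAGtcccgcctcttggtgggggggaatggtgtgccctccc
Heatr1 held 1 ETS core, 16 bases before the start, and Emg1 held 2, at 44 and 120 bases, while Nob1 and Rrp9 held none of the 5 motifs. The 13 genes with the ETS core were Bms1, Cirh1a, Dhx37, Emg1, Heatr1, Ltv1, Mphosph10, Nhp2l1, Nol10, Pwp2, Utp18, Utp3 and Wdr46.

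Growing oocytes with the deletion were set against growing controls to ask how loss of Dcaf13 affects the transcripts of its partner machinery while the oocyte grows. Most genes of the processome were slightly above control, and none differed by 2-fold on the log2(FPKM + 1) scale. Of the 44 genes, 40 reached the minimum and 4 did not (Dhx37, Nol11, Rrp12 and Tsr1). None of the 40 was higher or lower by the 2-fold rule, against 2.62% (higher) and 2.51% (lower) of the 8010 genes of the table that reached it. By the 1.5-fold rule 3 were higher (Rrp9, Nob1 and Nol6), against 10.1% of all genes, and 1 was lower (Utp23), against 6.84%. Above control stood 33 of the 40, which is 82.5%, against 58.5% of all genes, and over all 44 it was 36. The median change of the 40 was 0.22, against 0.080 for all genes. Of all 44 genes, 31 lay above the median of all genes. With 1 library per group this describes these libraries and not the conditions.

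**Figure D2:**
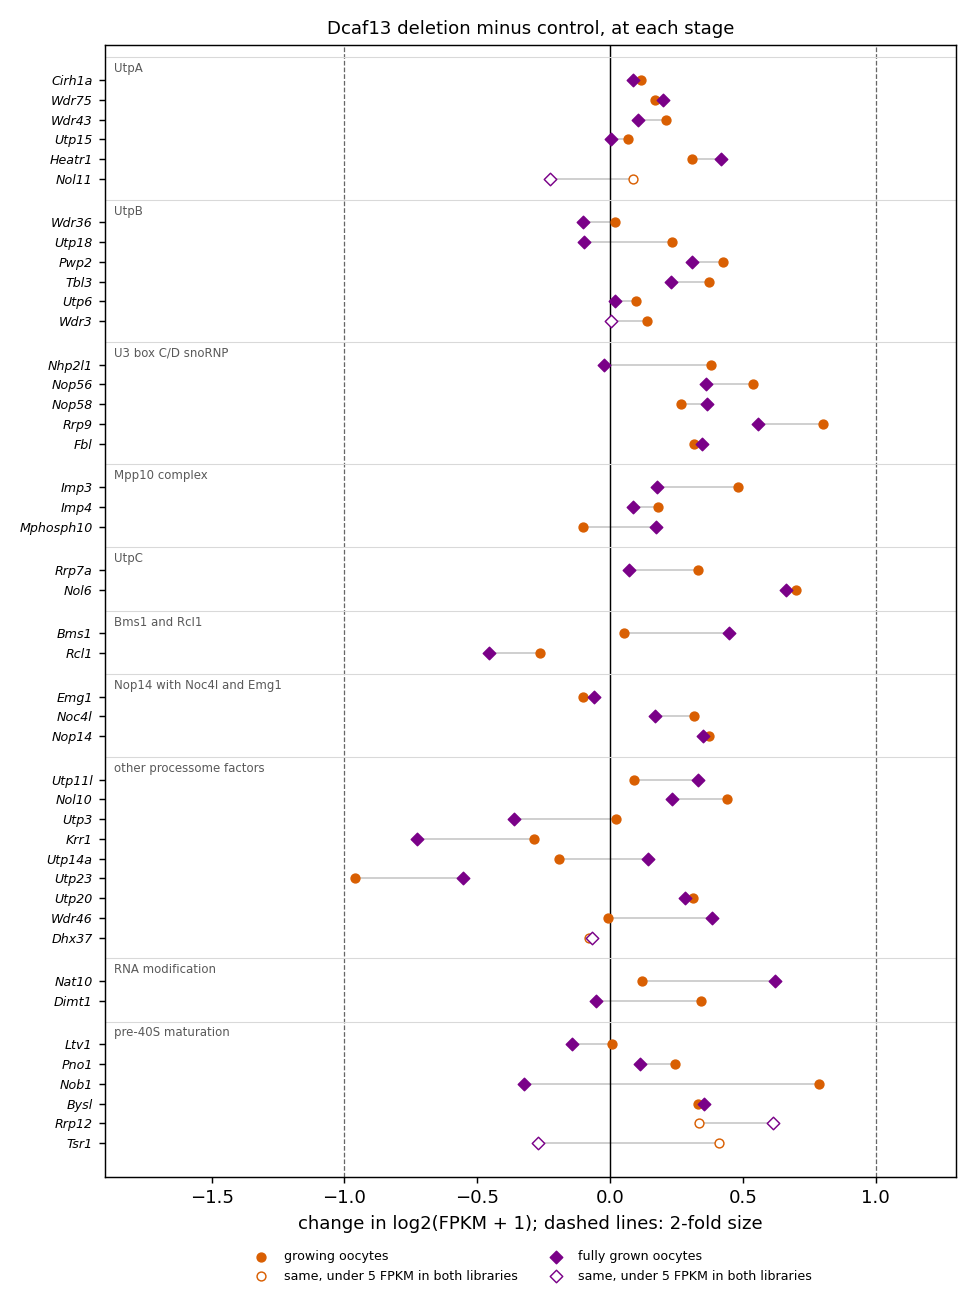
Change in log2(FPKM + 1), deletion minus control, for each of the 44 genes in growing and fully grown oocytes; open symbols mark genes under 5 FPKM in both libraries of a comparison. Most points lie between 0 and 0.5, no point passes the dashed lines of the 2-fold size, and Nob1 lies on opposite sides of 0 at the 2 stages.

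The counts by subcomplex include the 4 genes under the minimum and stand beside the 58.5% of all genes above control. UtpA, the first subcomplex to bind the precursor, had 6 of 6 members above control, with changes from 0.067 to 0.31, Nol11 under the minimum among them. Heatr1, its largest scaffold, stood at 12.0 FPKM in deletion against 9.49 in control oocytes (0.31). Wdr43 stood at 28.2 FPKM in deletion against 24.2 in control oocytes (0.21), and Wdr75 at 55.0 FPKM in deletion against 48.7 in control oocytes (0.17). Utp15 was nearly level, at 9.90 FPKM in deletion against 9.40 in control oocytes. UtpB, which follows UtpA and bridges it to U3, also had 6 of 6 members above control, from 0.018 (Wdr36) to 0.43 (Pwp2), though after median-ratio rescaling of the libraries Wdr36 was at -0.030. Pwp2, a tandem WD40 protein, stood at 21.4 FPKM in deletion against 15.7 in control oocytes, and Tbl3, its partner of the same fold, at 11.8 FPKM in deletion against 8.89 in control oocytes (0.37). Utp6 differed little, at 7.77 FPKM in deletion against 7.19 in control oocytes. The check of the re-paired symbols, described with the processing, was best at another shift of the rows for some of these genes. They were Wdr43 and Wdr75 of UtpA and Wdr3 and Wdr36 of UtpB.

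The U3 snoRNP had the largest median of the groups with more than 2 members. All 5 of its genes were above control, from 0.27 to 0.80, with a median of 0.38. Rrp9, the subunit that tells U3 from other box C/D RNPs, stood at 26.5 FPKM in deletion against 14.8 in control oocytes (0.80), the largest increase of the 44. Nop56, a scaffold of the RNP, stood at 108 FPKM in deletion against 74.3 in control oocytes (0.54), and its paralog Nop58 at 65.5 FPKM in deletion against 54.3 in control oocytes (0.27). Fbl, the fibrillarin methyltransferase, stood at 25.9 FPKM in deletion against 20.6 in control oocytes (0.32). Nhp2l1 had a change of 0.38. Nop56 and Nop58 each hold small nucleolar RNA genes in their introns, all listed at 0 here. The libraries were amplified from poly(A) tails, so a value of 0 does not show that these RNAs were absent.

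In the Mpp10 complex Imp3 had a change of 0.48, Imp4 stood at 108 FPKM in deletion against 95.5 in control oocytes (0.18), and Mphosph10, the scaffold that holds both, was at 75.4 FPKM in deletion against 81.0 in control oocytes (-0.10, or 0.036 with the trend with GC content and length removed). UtpC, which in yeast also contains casein kinase 2, had both members above control: Nol6 at 7.29 FPKM in deletion against 4.11 in control oocytes (0.70) and Rrp7a at 28.3 FPKM in deletion against 22.3 in control oocytes (0.33). Rrp7a overlaps Serhl on the opposite strand by 825 bases, and Serhl itself was lower, at 12.1 FPKM in deletion against 15.9 in control oocytes. The GTPase gene Bms1 was nearly level, at 105 FPKM in deletion against 101 in control oocytes, while its partner Rcl1 was below control, at 23.7 FPKM in deletion against 28.7 in control oocytes (-0.26). Nop14 stood at 27.2 FPKM in deletion against 20.8 in control oocytes (0.37) and its partner Noc4l at 221 FPKM in deletion against 177 in control oocytes (0.32), whereas Emg1, which binds Nop14, had a change of -0.10.

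The 9 other processome factors were divided, with 4 above and 5 below control. Utp23, a PIN-domain protein needed in yeast to release the snR30 RNA, stood at 9.13 FPKM in deletion against 18.7 in control oocytes, a change of -0.96 and the largest decrease of the 44. Its FPKM in deletion oocytes was 48.8% of that in controls, and it passed the 2-fold rule with a pseudocount of 0.1 (-1.03) and after median-ratio rescaling (-1.01). Krr1, a KH-domain protein, stood at 18.3 FPKM in deletion against 22.5 in control oocytes (-0.28), and Utp14a was at -0.19. Above control were Nol10, a WD40 protein, at 54.7 FPKM in deletion against 39.99 in control oocytes (0.44), and Utp20, a very large HEAT-repeat protein, at 10.3 FPKM in deletion against 8.10 in control oocytes (0.31). Utp11l (now Utp11) stood at 119 FPKM in deletion against 112 in control oocytes, Utp3 at 33.3 FPKM in deletion against 32.8 in control oocytes and Wdr46 at 8.35 FPKM in deletion against 8.40 in control oocytes, all with changes of less than 0.1 either way.

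Both genes of 18S modification were above control: Nat10, which acetylates cytidines of 18S, at 13.5 FPKM in deletion against 12.3 in control oocytes (0.12) and Dimt1, which dimethylates adenosines near its end, at 10.4 FPKM in deletion against 7.96 in control oocytes (0.34). The factors that ripen the pre-40S particle had 6 of 6 above control, from 0.0084 (Ltv1, -0.040 after rescaling) to 0.78 (Nob1), although Rrp12 and Tsr1 were under the minimum. Nob1, the endonuclease that makes the last cut at the end of 18S, stood at 21.2 FPKM in deletion against 11.9 in control oocytes, and its transcribed region is given in mm9 as chr8:109936388-109948938 (minus strand). Pno1, its KH-domain partner, stood at 45.1 FPKM in deletion against 37.9 in control oocytes (0.25). Bysl, the counterpart of yeast Enp1 on the early pre-40S particle, stood at 11.8 FPKM in deletion against 9.16 in control oocytes (0.33). Ccnd3, which overlaps Bysl by 358 bases on the opposite strand, was at 13.9 FPKM in deletion against 6.03 in control oocytes, and because the protocol does not mark strand, reads of this stretch cannot be told apart.

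At the end of growth the same question was asked of fully grown oocytes. The genes again lay mostly above control, and none differed by 2-fold on the log2(FPKM + 1) scale. Of the 44 genes, 39 reached the minimum, and the 5 that did not were Dhx37, Nol11, Rrp12, Tsr1 and Wdr3. None was higher or lower by the 2-fold rule, against 1.08% and 1.09% of all 7413 genes. By the 1.5-fold rule 2 were higher (Nol6 and Nat10), against 6.29% of all genes, and 1 lower (Krr1), against 4.9%. Above control stood 28 of 39, or 71.8%, against 55% of all genes, and over all 44 it was 30. The median change of the 39 was 0.17, against 0.037 for all genes, and after median-ratio rescaling it was 0.11, against -0.024 for all genes.

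Nol6 was the only one of the 39 past the 1.5-fold rule upward at both stages; in fully grown oocytes it stood at 6.45 FPKM in deletion against 3.71 in control oocytes (0.66). Nat10 stood at 21.2 FPKM in deletion against 13.5 in control oocytes (0.62), with 3 libraries between 12.3 and 13.5 FPKM and the fully grown deletion library alone above them. Rrp9 stood at 26.8 FPKM in deletion against 17.9 in control oocytes (0.56). Bms1 stood at 132 FPKM in deletion against 96.3 in control oocytes (0.45), and Heatr1 at 11.1 FPKM in deletion against 8.09 in control oocytes (0.42). In the U3 snoRNP, Nop58 stood at 65.1 FPKM in deletion against 50.3 in control oocytes (0.37), Nop56 at 97.5 FPKM in deletion against 75.6 in control oocytes (0.36) and Fbl at 19.4 FPKM in deletion against 15.1 in control oocytes (0.35), while Nhp2l1 was level at -0.023.

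On the lower side Krr1 stood at 14.0 FPKM in deletion against 23.9 in control oocytes, a change of -0.73. It overlaps Glipr1 on the opposite strand by 2983 bases, and Glipr1 was at 3.49 FPKM in deletion against 5.18 in control oocytes, and reads of that stretch cannot be told apart. Utp23 stood at 8.98 FPKM in deletion against 13.7 in control oocytes (-0.55) and Rcl1 at 29.3 FPKM in deletion against 40.5 in control oocytes (-0.45). Utp3, the counterpart of yeast Sas10, stood at 26.2 FPKM in deletion against 34.0 in control oocytes (-0.36). Nob1 stood at 6.24 FPKM in deletion against 8.07 in control oocytes (-0.32), below control where it had been above at the growing stage. Ltv1, an adaptor of the pre-40S particle, stood at 65.9 FPKM in deletion against 72.9 in control oocytes (-0.14). The 6 factors of the pre-40S particle, all above control at the growing stage, were here divided. Of them 3 were above and 3 below control, with a median of -0.016, Rrp12 and Tsr1 under the minimum among them. Imp4 (0.085), Imp3 (0.18) and Mphosph10 (0.17) were all slightly above control, and in UtpA 5 of 6 and in UtpB 4 of 6 members were above it, though after rescaling Utp15 (-0.053), Utp6 (-0.039) and Wdr3 (-0.049) were not.

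Among the remaining genes of the fully grown stage, Utp11l stood at 158 FPKM in deletion against 125 in control oocytes (0.33) and Nop14 at 28.5 FPKM in deletion against 22.1 in control oocytes (0.35). Noc4l stood at 177 FPKM in deletion against 157 in control oocytes (0.17), and Wdr46, a WD40 protein of the processome core, at 8.82 FPKM in deletion against 6.54 in control oocytes (0.38). In UtpB, Pwp2 stood at 15.4 FPKM in deletion against 12.2 in control oocytes (0.31) and Utp18 at 40.8 FPKM in deletion against 43.7 in control oocytes (-0.099, or 0.014 with the trend with GC content and length removed). Dimt1 was nearly level, at 7.02 FPKM in deletion against 7.33 in control oocytes, and Bysl stood at 9.99 FPKM in deletion against 7.61 in control oocytes (0.35). Rrp12, under the minimum in every library, stood at 4.48 FPKM in deletion against 2.58 in control oocytes (0.61).

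The deletion comparisons at the 2 stages share no library, so their directions can be set side by side. Of the 39 genes at the minimum in both, 25 were above control at both stages, which is 64.1%, against 39.2% of all 7188 genes (after rescaling, 23), and 4 were below control at both (Emg1, Krr1, Rcl1 and Utp23), or 10.3%, against 27.8%. By the 1.5-fold rule 1 was higher at both (Nol6) and none lower at both, against 1.85% and 1.71% of all genes. Both deletion libraries lay above both control libraries, without overlap, for 18 of the 39 genes (46.2%), against 22.4% of the 7188 genes (14, against 17.98%, after rescaling), and both lay below for 2 (Krr1 and Utp23), against 14.8%, or for 4, against 18.5%, after rescaling. The 18 were Bms1, Bysl, Cirh1a, Heatr1, Imp3, Imp4, Nat10, Nol10, Nol6, Nop14, Nop56, Nop58, Pno1, Rrp9, Tbl3, Utp20, Wdr43 and Wdr75. Among them the gap was small for Nat10, at 13.50 FPKM in growing deletion against 13.47 in fully grown control oocytes. It was also small for Cirh1a, at 220.8 FPKM in fully grown deletion against 220.0 in growing control oocytes. For Wdr43 and Wdr75 the check of the re-paired symbols was best at another shift of the rows. Across the 39 genes the changes at the 2 stages had Pearson's r of 0.56 and Spearman's rho of 0.44, against 0.44 and 0.47 across all genes. Genes of 1 library share its depth and base composition and are not replicates. All 3 scaffold or enzyme subunits of box C/D RNPs (Nop56, Nop58 and Fbl) and both UtpC genes were among the 25 as were Heatr1, Wdr43, Wdr75, Utp15 and Cirh1a of UtpA. Pwp2, Tbl3 and Utp6 of UtpB were too. Once the trend with GC content and length was removed, 3 of the 25 were below control in fully grown oocytes: Rrp7a (-0.19), Tbl3 (-0.057) and Noc4l (-0.0083). Nhp2l1, Mphosph10, Utp18 and Dimt1, which are not among the 25, were then above control at both stages. Their changes in fully grown oocytes were then 0.047, 0.29, 0.014 and 0.094.

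The deletion differences moved with base composition, whose part in them was not tested. Across the 40 genes in growing oocytes the change had a Spearman's rho of 0.43 with the GC content of the transcript, against 0.36 across 7934 genes of the table. In fully grown oocytes it was 0.42 across the 39 genes, against 0.39 across 7342. Among members with a GC content of at least the members' median, 17 of 19 were above control in growing oocytes with a median of 0.33, where 67.6% of all such genes were above control with a median of 0.17. Among members under it, 16 of 21 were above control with a median of 0.12, where 43.8% of all such genes were, with a median of -0.046. Fully grown oocytes had 16 of 19 (66.2% of all such genes) and 12 of 20 (37.5%). After removal of the trend with GC content and length across all genes, 33 of 40 genes were above control in growing oocytes (58.1% of all genes) with a median of 0.22 (0.067 for all genes), and 28 of 39 in fully grown oocytes (52.5%) with a median of 0.12 (0.019). The 1.5-fold rule then called 1 gene higher in growing oocytes (Nob1, at 0.69), against 7.84% of all genes, and 0 in fully grown oocytes, against 3.62%. At the growing and the fully grown stage the changes of Rrp9 were then 0.47 and 0.26, those of Nol6 0.45 and 0.32, and those of Nop56 0.53 and 0.30. Rrp9 has a transcript GC content of 59.9%, the highest of the 44, and Nol6 one of 57.1%.

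**Figure D3:**
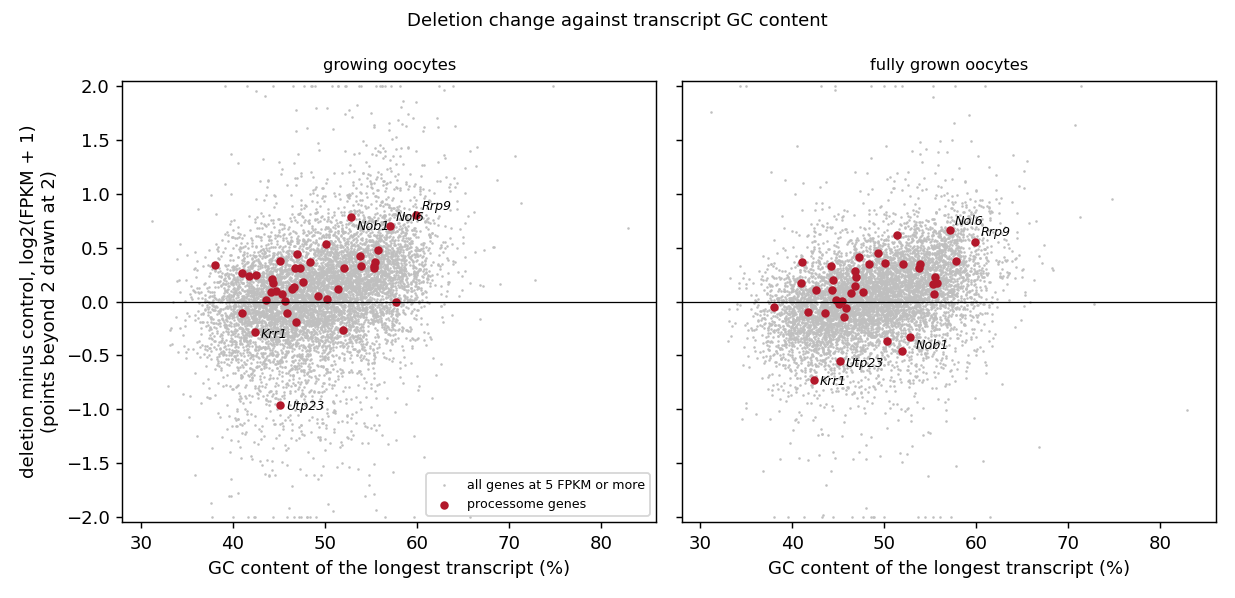
Change in log2(FPKM + 1), deletion minus control, against GC content of the longest transcript, for the processome genes (red) and all genes at 5 FPKM or more (grey), in growing and fully grown oocytes. Both clouds slope upward with GC content (rho 0.36 and 0.39 for all genes), and the red points lie mostly above 0.

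Control oocytes of both stages describe these genes over normal growth, in which stage, age and PMSG cannot be told apart. The 44 genes together made up 0.385% of summed FPKM in fully grown against 0.369% in growing controls, with members on both sides. Of 39 genes at the minimum none was higher or lower by the 2-fold rule, against 1.11% and 3.07% of all 7661 genes. By the 1.5-fold rule none was higher, against 3.6%, and 1 was lower (Wdr3), against 10.7%. Above the growing value stood 22 of 39, or 56.4%, against 43.9% of all genes, and over all 44 it was 22. The median change of the 39 was 0.047, against -0.058 for all genes, but over all 44 it was -0.020. The change had a rho of -0.35 with GC content across the 39 genes, against -0.30 across 7588 genes of the table.

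Rcl1 stood at 40.5 FPKM in fully grown against 28.7 in growing controls (0.49), Mphosph10 at 107 in fully grown against 81.0 in growing controls (0.40), and Emg1 at 534 in fully grown against 414 in growing controls (0.37). Utp18 of UtpB stood at 43.7 in fully grown against 33.8 in growing controls (0.36). Wdr3, a UtpB member of the tandem WD40 kind, stood at 4.52 FPKM in fully grown against 8.64 in growing controls (-0.80), so members of this subcomplex lay on both sides. Fbl was at 15.1 in fully grown against 20.6 in growing controls (-0.43), Rrp7a at 16.4 in fully grown against 22.3 in growing controls (-0.42) and Noc4l at 157 in fully grown against 177 in growing controls (-0.18). Nob1 was at 8.07 in fully grown against 11.9 in growing controls (-0.51).

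The same growth contrast within the deletion shares its libraries with the deletion comparisons, so the values are not independent of those above. Nob1 was the only one of the 40 genes at the minimum past the 2-fold rule. It stood at 6.24 FPKM in fully grown against 21.2 in growing deletion oocytes, a change of -1.62, beside -0.51 in controls. None was higher by that rule, against 2.7% of all 7957 genes, and the 1 lower gene stands beside 8.75%. By the 1.5-fold rule 3 were higher (Utp14a, Mphosph10 and Nat10), against 7.96%, and 3 lower (Nob1, Wdr3 and Rrp7a), against 19.2%. Above the growing value stood 16 of 40, or 40% of them, against 44.1% of all genes. The median of the 40 was -0.073, against -0.071 for all genes.

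Utp14a stood at 21.2 FPKM in fully grown against 12.8 in growing deletion oocytes (0.69). It has a retrogene copy, Utp14b, that was at 0.963 to 2.94 FPKM in the 4 libraries, so reads shared by both copies make its value uncertain, and it overlaps 9530027J09Rik on the opposite strand by 5658 bases. Mphosph10 stood at 121 in fully grown against 75.4 in growing deletion oocytes (0.67) and Nat10 at 21.2 in fully grown against 13.5 in growing deletion oocytes (0.62). Wdr3 was at 4.53 in fully grown against 9.62 in growing deletion oocytes (-0.94), Rrp7a at 17.3 in fully grown against 28.3 in growing deletion oocytes (-0.68) and Pwp2 at 15.4 in fully grown against 21.4 in growing deletion oocytes (-0.45). Wdr3 passed the 2-fold rule with a pseudocount of 0.1 (-1.07). Wdr3 and Mphosph10 are among 6 of the 44 genes for which the check of the re-paired symbols was best at another shift of the rows.

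**Figure D4:**
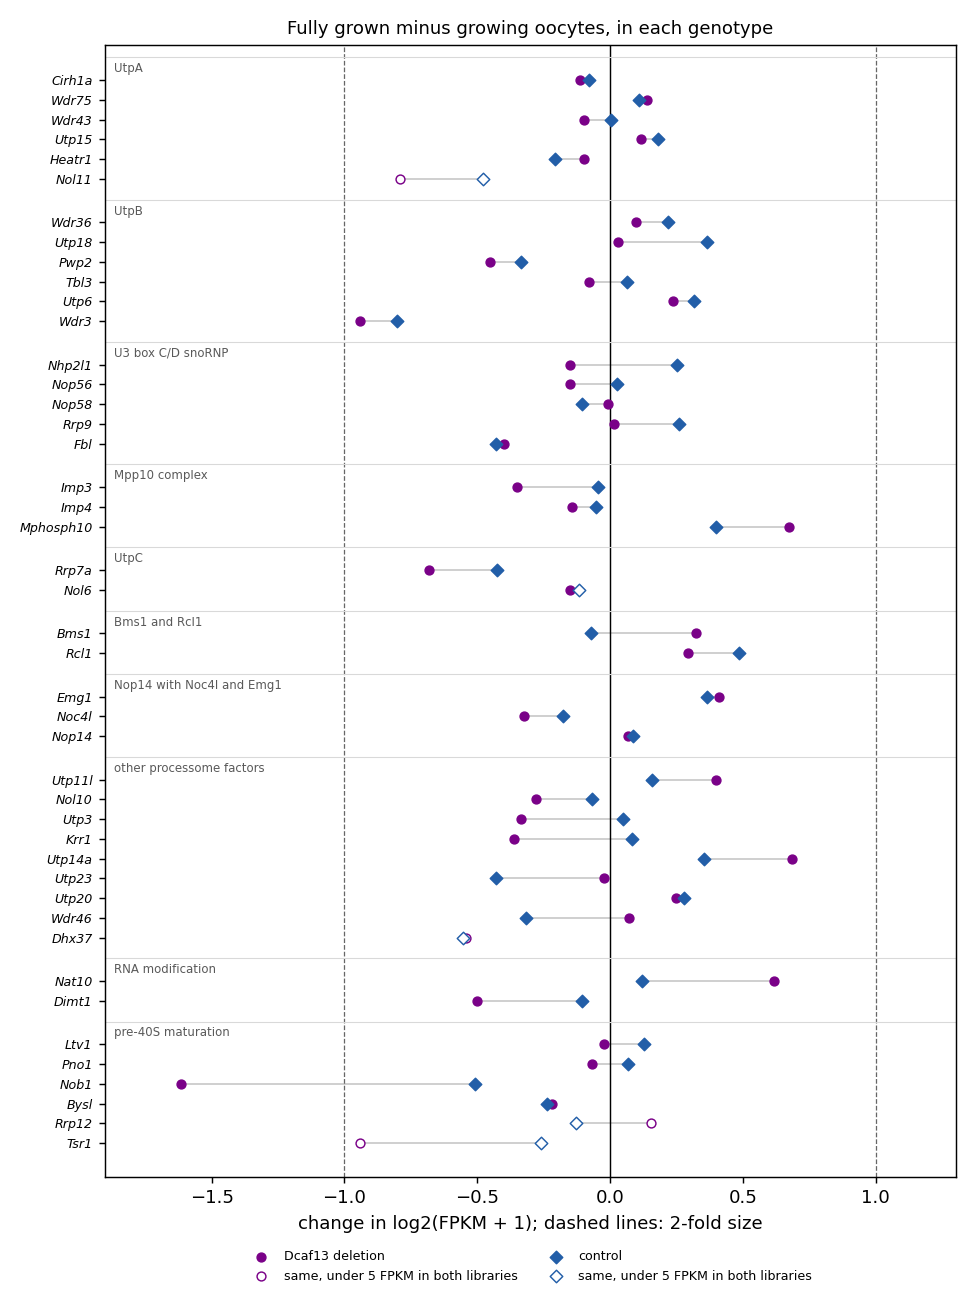
Change in log2(FPKM + 1), fully grown minus growing oocytes, for each of the 44 genes in deletion and control oocytes; open symbols mark genes under 5 FPKM in both libraries. Nob1 in the deletion lies past the dashed line of the 2-fold size, and Wdr3 lies low in both genotypes.

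Growth in the deletion and in controls shares no library between them. Of the 39 genes at the minimum in both, 14 were above the growing value in both genotypes, or 35.9%, against 32% of all 7383 genes, and 15 were below it in both, or 38.5%, against 42%. By the 1.5-fold rule none was higher and 1 lower (Wdr3) in both, against 1.81% and 7.45%. Across the 39 genes the changes had r = 0.74 (Pearson) and rho = 0.72 (Spearman), against 0.68 and 0.66 across all genes. Among the 14 were Emg1, Mphosph10, Rcl1, Utp11l, Utp14a, Nat10 and Rrp9, and among the 15 Wdr3, Nob1, Fbl, Rrp7a, Pwp2 and Imp3.

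A further 32 genes of 18S processing outside the 44 were listed, apart from Dcaf13, and 30 were found. None of the 25 at the minimum in any comparison was past the 2-fold rule in it. In growing oocytes 15 of 25 were above control, beside 58.5% of all genes, with a median of 0.070, beside 0.080 for all genes. None was past the 1.5-fold rule, beside 10.1% of all genes higher and 6.84% lower. In fully grown oocytes 16 of 25 were above control, beside 55% of all genes, with a median of 0.099, beside 0.037. There 1 was higher and none lower by the 1.5-fold rule, beside 6.29% and 4.9% of all genes. The most abundant was Fcf1, a PIN-domain nuclease that cuts the precursor, at 489.9 FPKM in growing deletion oocytes against 388 in growing controls, and 611 in fully grown deletion oocytes against 563 in fully grown controls. Csnk2b, the regulatory subunit of casein kinase 2, stood at 332 FPKM in growing deletion oocytes against 265 in growing controls, and 373 in fully grown deletion oocytes against 283 in fully grown controls. Trmt112, an activator of methyltransferases, stood at 377 FPKM in growing deletion oocytes against 262 in growing controls, and 341 in fully grown deletion oocytes against 273 in fully grown controls. Dcaf13 itself stood at 160.2 FPKM in fully grown against 96.1 in growing controls (0.73), a larger increase over growth than that of any of the 44 genes in controls, where the highest was 0.49.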

How the data were processed

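RNA of 10 oocytes per library was amplified with Smart-seq2 from poly(A) tails and made into Tn5 libraries, per the labels' protocols. The deposited values are FPKM computed by the authors, 1 column per library. Per the submitters' processing notes, Cufflinks 2.2.1, Bowtie2 2.1.0, TopHat2 2.0.11 and CASAVA 1.8 were used with the build mm9. Their settings and the strand handling were not given in the sources used here. Read counts are unknown, so no interval of counting error can be given. No column was left without a sample (0).

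In the 23235 rows of the deposited table the symbols are sorted in one order and the values run in another. Symbols in byte order were assigned to the value rows in file order, so that 19122 rows took another symbol and 4113 kept theirs. This was inferred from the data. Expression of the 13 chromosome Y genes, which oocytes lack, summed to 0.153 FPKM after re-pairing and 197 as deposited. Over 3944 genes under 0.3 FPKM in every library, the log of the smallest value correlated with the log of transcript length at -0.42 after re-pairing and -0.17 as deposited. In windows of 500 rows, 41 of 46 were best at no shift after re-pairing and 8 as deposited. Of the 44 genes, 38 lay in such windows after re-pairing, and 6 (Mphosph10, Wdr3, Wdr36, Wdr43, Wdr46 and Wdr75) did not. The count of windows depends on the limit: with genes under 1 FPKM, 37 of 46 were best at no shift after re-pairing.

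With 1 library per group no model was fitted. Changes were differences in log2(FPKM + 1) with an FPKM minimum of 5 in 1 of the 2 libraries, over all genes of the table (Python 3.11.15, numpy 2.4.6, pandas 2.3.3). The steps were also run on simulated data with known answers. There the values were laid down in byte order, so that run checked the code and cannot show the order of the deposited rows. GC content and length came from the longest GENCODE M21 transcript of each symbol, and the trend removed was of degree 2. That transcript was taken without a filter on its kind, so it need not be the one measured in oocytes. The same limit holds for the changes with the trend removed. The alternatives were a pseudocount of 0.1, median-ratio rescaling, no minimum, a minimum of 20 FPKM, removal of the GC and length trend, and symbols as deposited. The members, lists and marker genes were chosen with earlier results of these data known. Values were to be given in full for genes past the 2-fold rule, for the 4 largest increases and decreases of each comparison among members at 20 FPKM or more, for the 3 highest and 3 lowest members, for Dcaf13, and for the 3 most abundant of the other 18S genes and of each marker list. Other members named were open to choice.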

Additional observations from a re-analysis of the deposited data

Results flagged for a closer look

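Nob1 lay above control in the deletion at the growing stage and below it at the fully grown stage. Its change was 0.78 in growing oocytes and -0.32 in fully grown oocytes, a difference of -1.11 between the stages. With 1 library per group the difference was not tested. Nob1 stood at 21.2 FPKM in growing deletion and 11.9 in growing control oocytes. It stood at 6.24 FPKM in fully grown deletion and 8.07 in fully grown control oocytes. The same growing deletion value enters its change of -1.62 over growth in the deletion, so these are not separate observations. The share of all genes with such a difference between the stages is not given here.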

How the results depend on the processing

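No paired analysis was possible because each group has 1 library, and for the same reason no replicate could be left out. Rescaling moved the median of all genes by less than 0.1 in every comparison. Counts are of members, with the value as reported in parentheses. With a pseudocount of 0.1, the 2-fold rule called 1 lower (0) in the growing deletion comparison and 2 lower (1) in growth of the deletion, and the 1.5-fold rule 2 lower (1) in the fully grown deletion comparison. After median-ratio rescaling these were 1 lower by 2-fold (0) in growing oocytes, 1 higher (2) and 2 lower (1) by 1.5-fold in fully grown oocytes, 7 below control at both stages (4), 4 with both deletion libraries below both control libraries (2), and a fully grown median of 0.11 (0.17). Without a minimum, the median of growth in controls was -0.020 (0.047), and 5 genes were lower by 1.5-fold (3) in growth of the deletion. With a minimum of 20 FPKM fewer genes were tested: by 1.5-fold, 0 lower (1) in growing oocytes, 1 higher (2) in fully grown oocytes and 0 lower (1) in growth of controls; 17 of 25 above control (28 of 39) in fully grown oocytes; 14 of 23 above control at both stages (25 of 39); 1 with both deletion libraries below both control libraries (2); and in growth 8 of 23 above (14) and 8 below (15) in both genotypes. With the GC and length trend removed, 1 was higher by 1.5-fold (3) in growing and 0 (2) in fully grown oocytes. With symbols as deposited, 18 of 26 were above control (33 of 40) in growing oocytes; fully grown oocytes had 12 of 24 above (28 of 39), 1 higher (2), 0 lower (1) and a median of -0.0098 (0.17); growth had 0 lower by 1.5-fold (1) in controls, and 1 higher by 2-fold (0) and 1 by 1.5-fold (3) in the deletion. Apart from the smaller number of genes tested, the cause was not tested. Alternatives for the counts at both stages or in both genotypes, and the counts without overlap, were chosen after seeing the data. No single gene past a size rule changed direction under a pseudocount of 0.1, rescaling or trend removal.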
